A study of Mus musculus with 24 samples.

Results

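The 36 genes described here encode complement and coagulation factors of mouse liver. They were chosen by name, as the loci whose symbol equals one on a list of 36 clotting factors, anticoagulants, fibrinolysis proteins, kininogens and complement components, and all 36 were found among the 23746 loci of every deposited table. Liver RNA of C57BL/6 mice was sequenced in 24 libraries, 3 in each of 8 groups, to compare livers with and without the transcription factor FoxO1 during fasting and refeeding. In the acute model, FoxO1lox/lox mice received AAV8.TBG.Cre (Cre, the acute knockout) or AAV8.TBG.eGFP (GFP, its control) through the tail vein, and livers were taken on day 21. In the constitutive model, FoxO1lox/lox mice carrying Albumin-cre (KO, genotype FoxO1-/- in the labels) were set against FoxO1lox/lox mice without it (WT). Every mouse therefore carried the floxed allele, and both acute groups received virus. Each genotype was sampled after 4 h of fasting followed by 1 h of refeeding (refed) and after 4 h of fasting alone (fasted). TBG and albumin promoters are active in hepatocytes, so both models target Foxo1 there, and whether other liver cells keep it was not measured. The labels give no age or sex and do not say that libraries came from separate animals, so the p-values measure the spread between these libraries, which may be technical.

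The liver makes most soluble clotting and complement proteins and secretes them into plasma as inactive precursors. In coagulation, serine proteases activate one another until thrombin turns fibrinogen into fibrin, while antithrombin, protein C and protein S hold the cascade back and plasmin dissolves the clot. The contact system, formed by factor XII, plasma kallikrein and the kininogens, feeds into clotting and releases the vasoactive peptide bradykinin. Complement is started by antibodies, by mannose-binding lectins or by spontaneous turnover of C3, and it ends in the membrane attack complex. FoxO1 is held out of the nucleus by insulin signalling, and is therefore most active in the fasted liver.

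Foxo1 checked the labels, with 0.212 to 0.571 FPKM in the 12 knockout libraries and 4.21 to 6.81 FPKM in the 12 control libraries. FPKM are fragments per transcript length, scaled to the mapped fragments of the library, so levels can be compared between genes. Total depth is not recorded, but the width of the deposited bounds, over loci expressed in every library, gave depth relative to the mean. By this measure 4 acute libraries (1 per group) lay at 1.16 to 1.37, the other 8 at 0.552 to 0.670, and the constitutive libraries at 1.10 to 1.27. Summed hepatocyte markers (7 genes, none at 0) lay between 49230 and 73816 FPKM in every library. The 3 libraries GFP fasted 1, GFP refed 2 and GFP refed 3 stood apart by Cyp2b13, a female-biased liver gene, with 55.6 to 93.3 FPKM against 0 to 3.24 FPKM in the other 21. In these 3 libraries the 11 male-biased genes of a fixed list summed to 2307 to 3143 FPKM and the 11 female-biased genes found to 605 to 923 FPKM, against 5129.8 to 15087 and 102 to 518 FPKM in the other 21. The female-biased sum includes Cyp2b13, by which these libraries were picked, so it partly restates that choice. The male-biased sum does not include it. GFP refed 2, Cre refed 1 and WT refed 2 stood apart by the acute phase gene Saa1, with 342 to 717 FPKM against 40.2 to 215 FPKM elsewhere. Where leaving out either set of 3 ends a call named below, the value without them is given. Bulk RNA cannot tell fewer cells of a type from less RNA per cell.

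The 36 genes held 2.08% to 2.93% of the summed FPKM of a library, and the ranges that follow run over all 24 libraries. Fibrinogen led: Fgg, the gamma chain, averaged 1824 FPKM (1412 to 2579) and Fga, the alpha chain, 1317 FPKM (1014 to 1870.2). C3, the central complement protein, averaged 1262 FPKM (942 to 1953), and Vtn (vitronectin, which blocks the membrane attack complex) 1179 FPKM (1017 to 1415). Kng1, the main kininogen, averaged 1007 FPKM (797 to 1256), Serpinc1 (antithrombin) 906 FPKM (802 to 999), Plg (plasminogen) 785 FPKM (656 to 911) and F2 (prothrombin) 766 FPKM (701 to 861). Among the coagulation proteases and cofactors the order after F2 was F12, F10, F5, F9, F7 and F11. It ran from 217 FPKM (195 to 252) for F12, which starts contact activation, down to 47.2 FPKM (31.7 to 59.3) for F11, which activates factor IX. F5, F9, F7 and F11 overlapped in range with their neighbours among these 4, while F12 and F10 lay apart from the members beside them. The lowest members were Masp1, a lectin pathway protease, at 18.4 FPKM (9.82 to 25.4), and Pros1 (protein S) at 14.7 FPKM (9.41 to 23.6). Fgg ranked 48 and Pros1 3108 among the 23746 loci by mean FPKM.

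**Figure D1:**
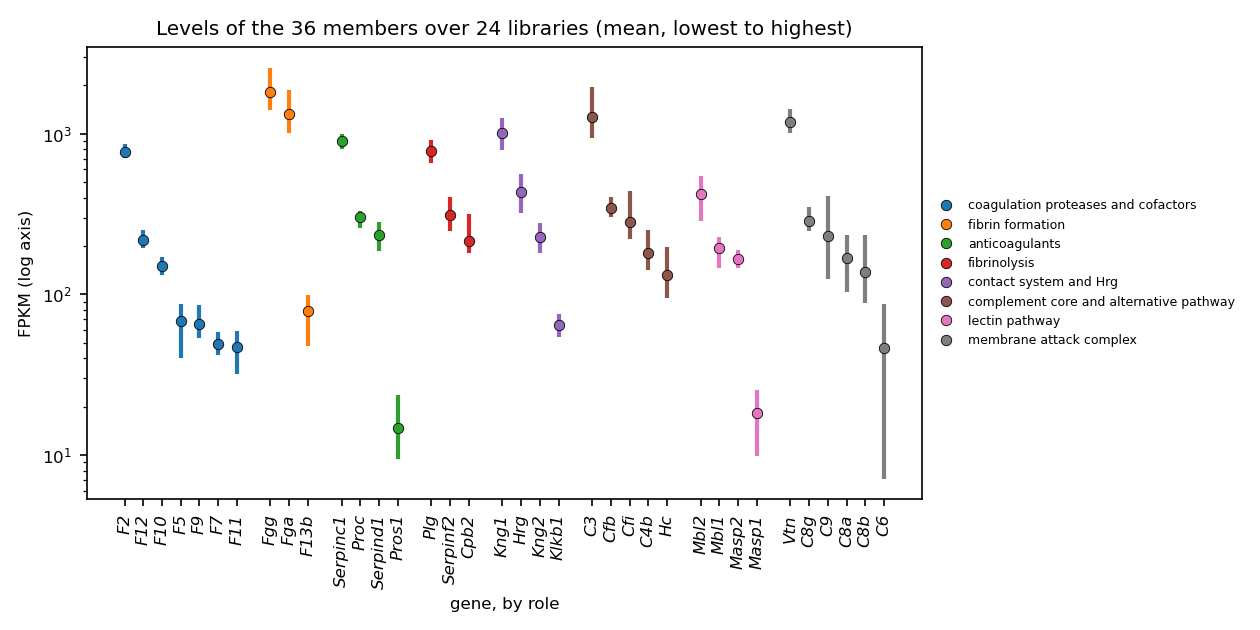
Level of each of the 36 genes over the 24 libraries. Points are mean FPKM on a log axis, bars run from the lowest to the highest library, and colours group the genes by role. Fgg is highest at 1824 FPKM and Pros1 lowest at 14.7 FPKM, and C6 spans the most of the log axis, 7.10 to 87.2 FPKM.

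The deposited 95% bounds of a member reached 0.455% to 14.7% to either side of its FPKM (median 3.22%), and the spread between the 3 libraries of a group had a median SD of 0.14 log2 units over the members, against 0.13 over the 3964 genes with a median of at least 10 FPKM. F2, Serpinc1, F12 and Proc (protein C) had the smallest coefficients of variation over all 24 libraries, 5.16%, 5.51%, 5.66% and 5.73%. C6 had the largest, 45.5%, followed by C9, Pros1 and C8b at 25.98%, 22.6% and 22.2%.

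Of the 36 members, 9 were called in at least 1 of 14 comparisons: Kng1, Kng2, Hrg, Serpinf2, Plg, Pros1, F11, C8a and Cfb. The shared refeeding comparison alone called 30.3% of all genes tested, so this count does not show more change than among all genes. A gene was called when the Benjamini-Hochberg adjusted p of limma on log2(FPKM + 1) was under 0.05 over all genes kept (FPKM of at least 1 in at least 3 libraries of the fit). The knockout effect shared by both models and both feeding states, a mean of 4 comparisons that share no library, called 8 of 35 members, where 3.14% of the 10682 genes tested were called. Of the 8, 6 were lower and 2 higher, against 1.98% and 1.16% of genes. The refeeding effect shared by both models and both genotypes called 5 of 35, where 30.3% of genes were called. Of the 5, 4 were lower and 1 higher, against 10.4% and 19.9% of genes. Of all genes called for refeeding, 2128 were higher and 1108 lower, against 1576 and 1606 with median-of-ratios scaling, which also called Kng2 (-0.11) and Serpinc1 (-0.10), both lower. Among single comparisons, refed against fasted GFP livers called 2 of 35 (Cfb and F11; 6.56% of 10454 genes). The other 11 comparisons called 0 members. Those between 2 groups called 0.297% of genes (Cre against GFP, fasted), 0.105% (Cre against GFP, refed), 5.44% (Cre, refed against fasted), 0.0964% (KO against WT, fasted), 0.0289% (KO against WT, refed), 0.318% (WT, refed against fasted) and 5.63% (KO, refed against fasted). At an unadjusted limma p under 0.05 they held, in the same order, 4 members (12.3% of genes), 8 (9.09%), 3 (24%), 4 (6.55%), 4 (10.8%), 0 (15.6%) and 4 (25.5%). The knockout and control libraries of a pair did not overlap for 7 members in refed acute livers (12.7% of genes), 13 in fasted acute livers (18.7%), 8 in refed constitutive livers (15.3%) and 9 in fasted constitutive livers (12.2%). Refed and fasted libraries did not overlap for 5 members in Cre (30.4%), 5 in GFP (27.2%), 10 in KO (30.3%) and 3 in WT livers (19.8%). Proc was marked as failed by the authors' software in GFP fasted 3 and Cre refed 1 and was tested only in the constitutive model, with 36 members there and 35 elsewhere.

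**Figure D2:**
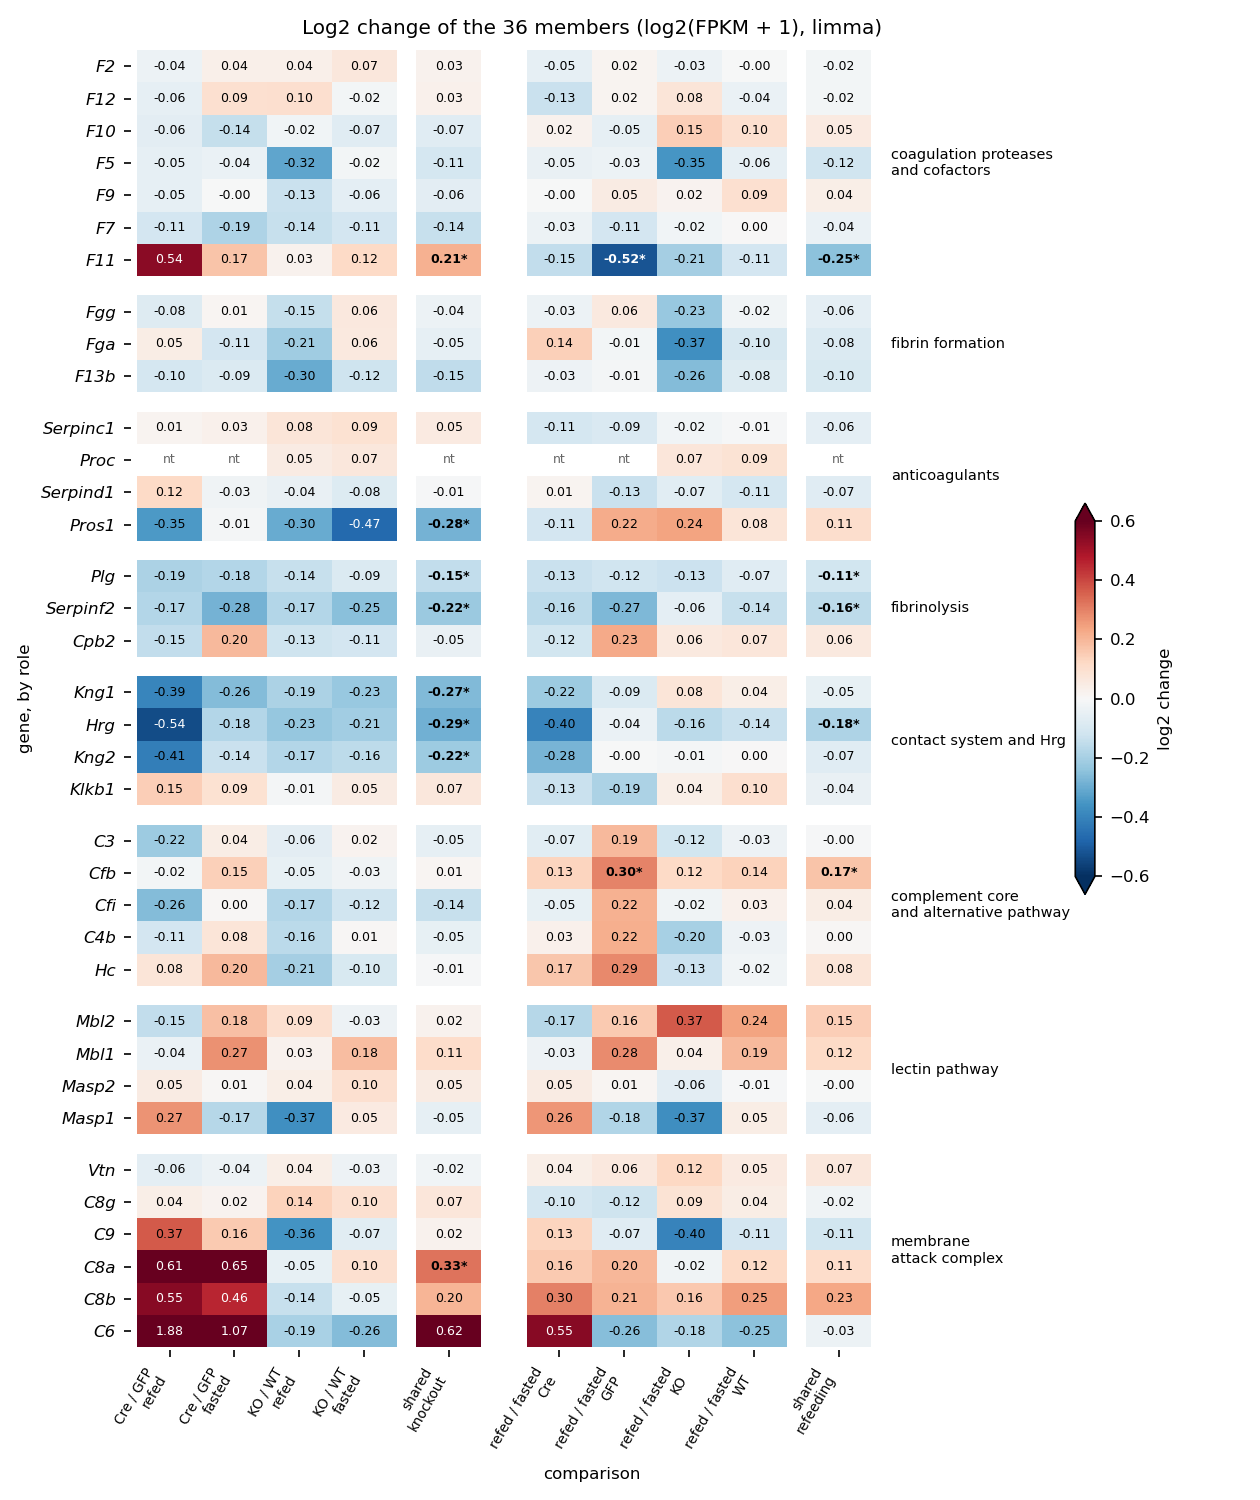
Log2 change of each member (rows, by role) in 8 comparisons of 2 groups and in the mean knockout and refeeding effects (columns). Red is higher and blue lower in the knockout or refed livers, colour saturates at 0.6 in either direction, an asterisk marks an adjusted limma p under 0.05, and nt marks Proc where it was not tested. Kng1, Kng2, Hrg, Serpinf2, Plg and Pros1 are blue in all 4 knockout columns.

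The median log2 change of the members was -0.036 for the shared knockout effect and -0.024 for the shared refeeding effect, against 0.0022 and 0.038 over all genes tested. Below 0 in all 4 knockout comparisons were 11 of 35 members (F5, F7, F9, F10, F13b, Serpinf2, Plg, Pros1, Kng1, Kng2 and Hrg), where 10.5% of genes were. Above 0 in all 4 were 4 members (F11, Serpinc1, C8g and Masp2), where 9.54% of genes were. Refed livers lay below fasted livers in all 4 comparisons for 7 members (F5, F11, F13b, Serpinc1, Serpinf2, Plg and Hrg; 13.6% of genes) and above them for 3 (C8b, Cfb and Vtn; 23.4% of genes). Hrg, Plg, Serpinf2 and F11 were called for both effects, which use the same 24 libraries.

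**Figure D3:**
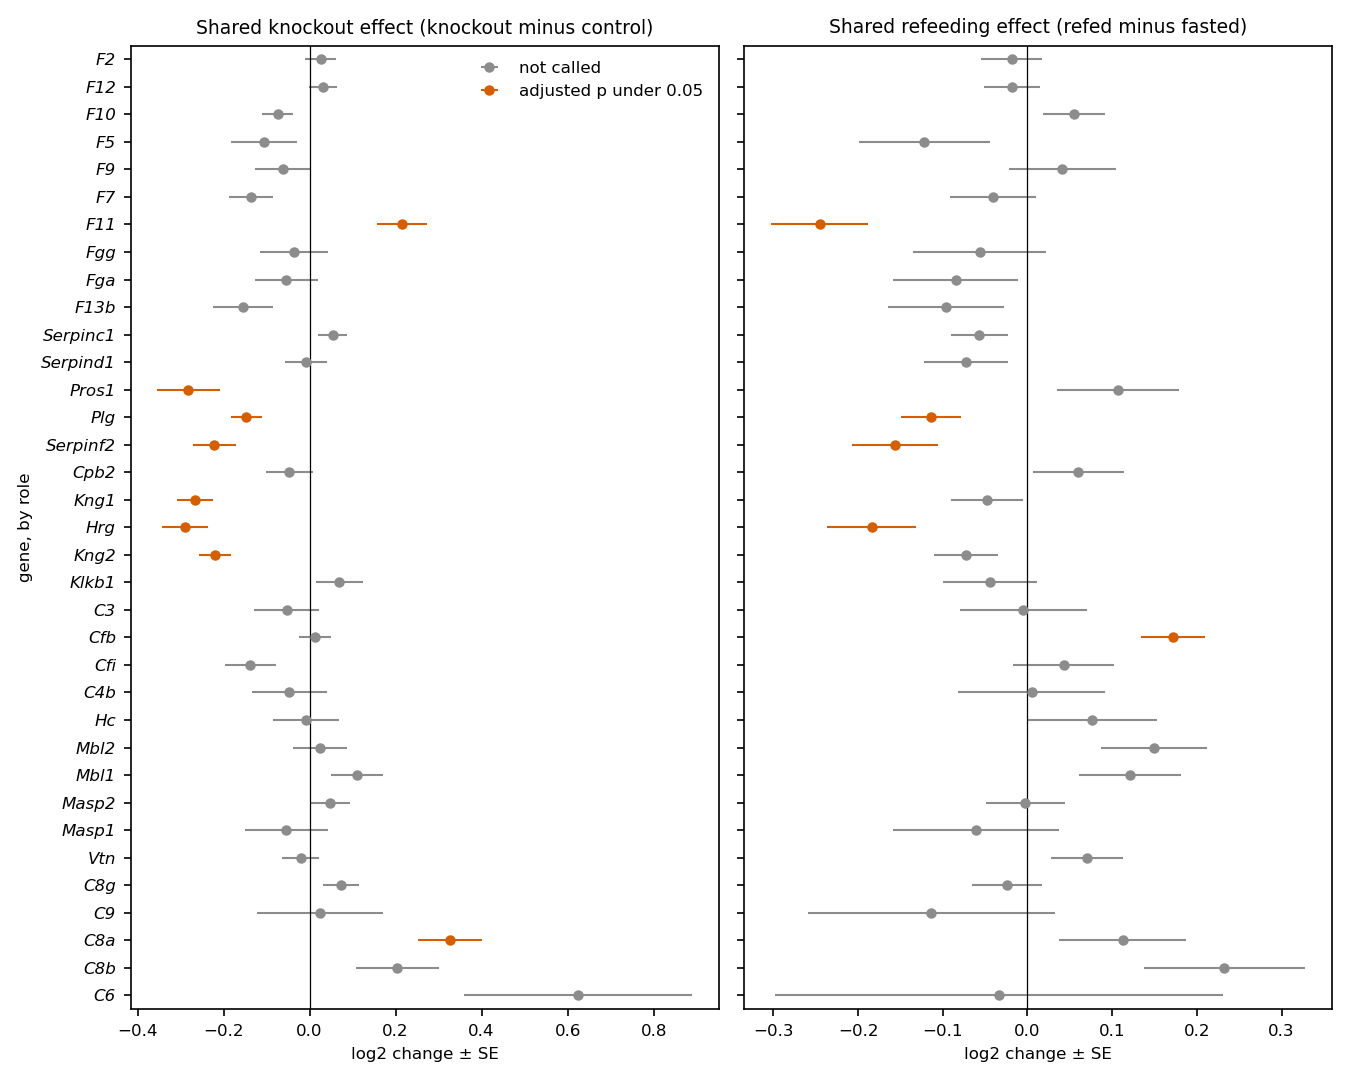
Mean knockout effect (left, knockout minus control) and mean refeeding effect (right, refed minus fasted) of the 35 members tested over 24 libraries, as log2 change with its SE. Orange marks an adjusted limma p under 0.05. On the left, 6 orange points lie below 0 and C8a and F11 above; on the right, Cfb lies above 0 and F11, Hrg, Plg and Serpinf2 below.

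The kininogens and Hrg fell without FoxO1 in the mean of both models and both feeding states, and their means lay below the control means in each of the 4 pairs. Kng1 encodes the kininogen that carries prekallikrein and releases bradykinin, Kng2 is a second kininogen gene of the mouse, and Hrg (histidine-rich glycoprotein) binds heparin, plasminogen and fibrinogen. Their shared knockout effects were -0.27 ± 0.042, -0.22 ± 0.038 and -0.29 ± 0.053 log2 units (SE), with limma adjusted p of 0.00100, 0.00220 and 0.00349. All 3 calls held in every alternative run, the libraries high in Cyp2b13 or Saa1 left out included. Without the 3 libraries high in Cyp2b13, the sizes were -0.20, -0.18 and -0.22. The 7 hepatocyte markers of a fixed list had a median shared knockout effect of -0.20, with 5 of them below 0, and 2 were called lower (Cyp2e1, -0.37, and Apoa1, -0.20). The markers were split: Tat (-0.55) and Cps1 (-0.20) were lower but not called, while Alb (-0.0034), Ttr (0.00095) and Serpina1a (0.076) lay near or above 0. The 6 members called lower had effects between -0.29 and -0.15, a range that holds the marker median but not the values of Alb, Ttr and Serpina1a. The part of hepatocyte RNA in these values was not tested.

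Kng1 measured 797, 822 and 839 FPKM in Cre refed livers, against 939.6, 1179.8 and 1125 FPKM in GFP refed livers. After fasting it measured 936, 1006 and 922 FPKM in Cre fasted livers, against 1256, 1071 and 1108 FPKM in GFP fasted livers. In the constitutive model it measured 985, 976 and 936 FPKM in KO refed livers, against 1172, 1047 and 1084 FPKM in WT refed livers, and 873, 983 and 896 FPKM in KO fasted livers, against 1060.2, 1147 and 1010.3 FPKM in WT fasted livers. No knockout library reached its controls in any of the 4 pairs, and the lowest 3 values of all were the Cre refed livers. From the refed acute pair on, the log2 changes of Kng1 were -0.39, -0.26, -0.19 and -0.23, and none was called alone (adjusted p between 0.196 and 0.605).

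Kng2 measured 181, 203 and 196 FPKM in Cre refed livers, against 233, 263 and 279.8 FPKM in GFP refed livers. Its fasted acute values were 241, 229 and 234 FPKM in Cre fasted livers, against 263, 251 and 259 FPKM in GFP fasted livers. It measured 210.1, 203 and 207 FPKM in KO refed livers, against 249, 230.1 and 221 FPKM in WT refed livers, and 206, 220.0 and 200.2 FPKM in KO fasted livers, against 224, 259 and 218 FPKM in WT fasted livers. The groups were apart in the 3 pairs other than the fasted constitutive one, where the highest KO library (220.0 FPKM) passed the lowest WT library (218 FPKM). The 3 libraries high in Cyp2b13 held 263 to 280 FPKM of Kng2, above the 181 to 259 FPKM of the other 21. Of 50-base windows, 17.2% of Kng1 transcripts occur in Kng2 and 19.4% of Kng2 transcripts in Kng1, so how fragments were divided between the pair is uncertain. Their sum was 1013 ± 30.4 FPKM in Cre refed livers against 1340.0 ± 147 FPKM in GFP refed livers (SD, n = 3 each), and 1189 ± 40.9 FPKM in Cre fasted against 1403 ± 104 FPKM in GFP fasted livers. In the constitutive model the sum was 1173 ± 26.8 FPKM in KO refed against 1335 ± 75.9 FPKM in WT refed livers, and 1126 ± 67.1 FPKM in KO fasted against 1306 ± 90.8 FPKM in WT fasted livers. The sum was lower without FoxO1 in all 4 pairs.

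Hrg measured 357, 341 and 329 FPKM in Cre refed livers, against 404, 560.1 and 542 FPKM in GFP refed livers. Its values after fasting were 465, 404 and 491 FPKM in Cre fasted livers, against 508, 485 and 540.1 FPKM in GFP fasted livers. The constitutive values of Hrg were 376, 319.7 and 381 FPKM in KO refed livers, against 415, 416 and 431 FPKM in WT refed livers, and 405, 407 and 389 FPKM in KO fasted livers, against 460.0, 505 and 425 FPKM in WT fasted livers. Knockout and control libraries were apart in 3 pairs and overlapped in the fasted acute pair. Within Cre livers, every refed library lay below every fasted one, with a log2 change of -0.40 ± 0.12 (limma adjusted p = 0.0811). The shared refeeding effect of Hrg was -0.18 ± 0.053 (adjusted p = 0.0129) and held in every alternative run.

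The largest gap of these 3 genes was in the acute refed pair, with log2 changes of -0.54 for Hrg, -0.41 for Kng2 and -0.39 for Kng1, none of them called (adjusted p = 0.154, 0.106 and 0.196). Kng2 and Kng1 also lay lower in Cre refed than in Cre fasted livers, with log2 changes of -0.28 and -0.22 (not called, adjusted p = 0.0686 and 0.204), with no overlap between the groups. GFP refed 1 was the lowest of its group for all 3 genes and the only GFP refed library without high Cyp2b13. Without it, the acute refed comparison called C6 (2.68, adjusted p = 0.0402), Hrg (-0.69, adjusted p = 0.0194), Kng1 (-0.49, 0.0476) and Kng2 (-0.49, 0.0290). Without that library, Hrg and Kng2 were also called between Cre refed and Cre fasted livers, at adjusted p = 0.0324 and 0.0499. Leaving out both GFP refed libraries high in Cyp2b13 with GFP fasted 1 gave -0.24, -0.20 and -0.27 for Hrg, Kng1 and Kng2 in the acute refed pair, with 1 GFP refed library assumed to vary like the other groups.

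**Figure D4:**
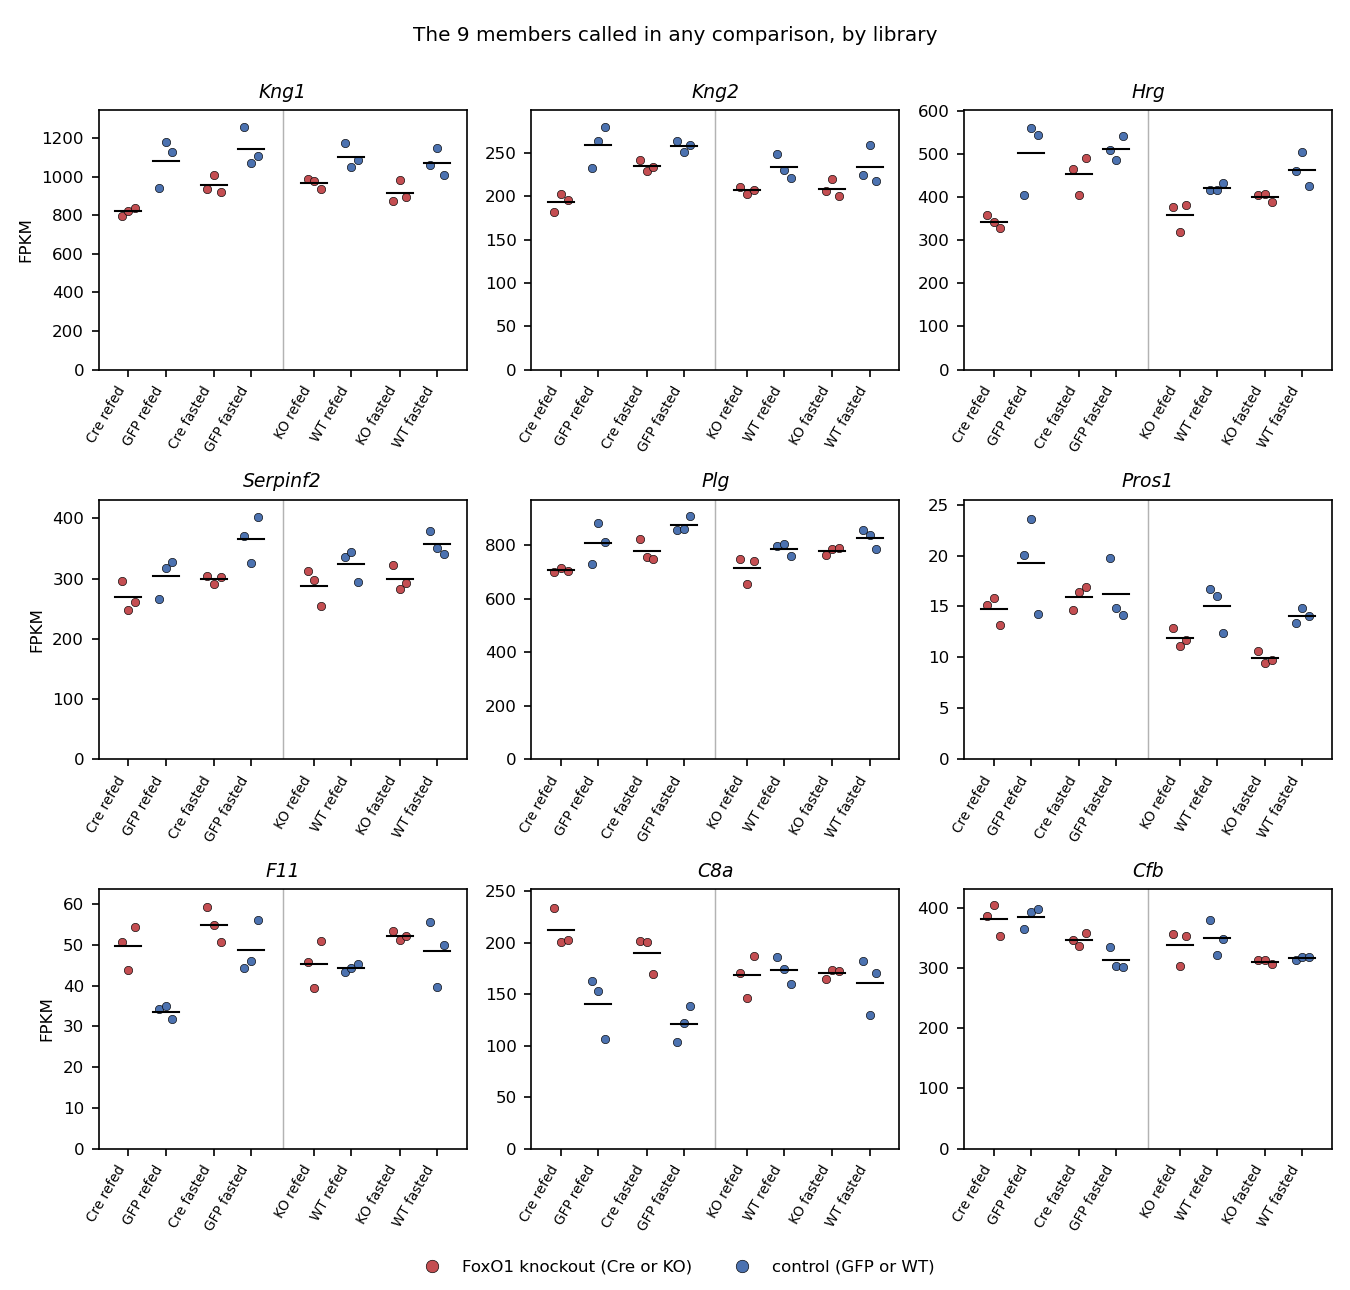
FPKM of the 9 members called in any comparison, by library. Each point is 1 library (red, Cre or KO; blue, GFP or WT), bars are group means, the grey line parts the acute model (left) from the constitutive model (right), and axes start at 0. Red points lie below blue points in all 4 pairs for Kng1.

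The 3 genes are neighbours on chromosome 16 (mm10): Hrg lies at 22951072 to 22961659, Kng2 at 22985852 to 23029101 and Kng1 at 23058300 to 23082078. The 250 bases before the annotated starts of Hrg and Kng2, which fell together, are printed from RefSeq (GRCm38.p6; Hrg chr16:22950822-22951071 on the plus strand, Kng2 chr16:23029102-23029351 on the minus strand). Capitals mark matches to TTGCNNAA on either strand, the core of a C/EBP element, whose factors activate many liver genes.
Hrg: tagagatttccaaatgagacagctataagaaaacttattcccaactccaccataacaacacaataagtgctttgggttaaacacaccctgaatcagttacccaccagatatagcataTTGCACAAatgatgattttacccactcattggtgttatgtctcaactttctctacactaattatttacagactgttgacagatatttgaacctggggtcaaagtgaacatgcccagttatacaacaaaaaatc
Kng2: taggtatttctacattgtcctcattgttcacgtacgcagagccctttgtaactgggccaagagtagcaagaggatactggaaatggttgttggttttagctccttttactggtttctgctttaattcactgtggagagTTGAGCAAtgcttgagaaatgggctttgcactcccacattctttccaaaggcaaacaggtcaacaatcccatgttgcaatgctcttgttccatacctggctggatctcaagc
Neither window holds GTAAACA, an element that FoxO proteins bind, or CAAAACAA, the insulin response sequence, on either strand. Of the 29 members with a RefSeq promoter, 8 hold TTGCNNAA (F9, F11, Fga, C3, C9, Kng2, Klkb1 and Hrg), against 9.56% of 32851 promoters of the same length. A member counted if any of its promoters matched, while the 9.56% is counted per promoter. The neighbour Fetub (22918382 to 22939768), a plasma fetuin, had a shared knockout effect of -0.19 ± 0.062 (adjusted p = 0.123), and Ahsg, the other fetuin (22892042 to 22899438), had -0.069 ± 0.045 (0.503).

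Klkb1, plasma prekallikrein, which cleaves kininogen, was not called in any comparison. It measured 62.4, 54.7 and 58.6 FPKM in GFP refed livers, against 66.8, 67.5 and 65.97 FPKM in GFP fasted livers, with no overlap between refed and fasted GFP livers and a log2 change of -0.19 ± 0.11 (adjusted p = 0.326). Its shared knockout effect was 0.070 ± 0.055 (adjusted p = 0.607), so of the contact system the 2 kininogens were called while Klkb1 and F12 (0.031, 0.711) were not.

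In fibrinolysis, plasminogen and its inhibitor were both lower without FoxO1 and lower after refeeding. Both knockout calls were lost without the 3 libraries high in Cyp2b13 and with the shallower acute libraries, as given below. Plg encodes plasminogen, the precursor of the fibrin-dissolving enzyme plasmin, and Serpinf2 encodes antiplasmin, the main inhibitor of plasmin. The shared knockout effects were -0.22 ± 0.051 for Serpinf2 and -0.15 ± 0.036 for Plg (limma adjusted p = 0.0199 and 0.0281). The shared refeeding effects were -0.16 ± 0.051 and -0.11 ± 0.036 (adjusted p = 0.0249 and 0.0211). The hepatocyte markers had medians of -0.20 for the knockout, with single markers split as given above, and 0.011 for refeeding.

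Serpinf2 measured 305, 291 and 302 FPKM in Cre fasted livers, against 369.9, 325 and 403 FPKM in GFP fasted livers. Its refed acute values were 296, 249 and 261 FPKM in Cre refed livers, against 266, 318 and 328 FPKM in GFP refed livers. The constitutive model gave 323, 283 and 293 FPKM in KO fasted livers, against 379.6, 351 and 341 FPKM in WT fasted livers, and 312, 297 and 255 FPKM in KO refed livers, against 337, 344 and 294 FPKM in WT refed livers. Knockout and control libraries were apart in both fasted pairs (log2 changes -0.28 and -0.25; adjusted p = 0.305 and 0.645) and overlapped in both refed pairs. The knockout call of Serpinf2 was lost when only the 8 shallower acute libraries were fitted with the constitutive ones (-0.21, adjusted p = 0.0620) and without the 3 libraries high in Cyp2b13 (-0.17, 0.141). Its refeeding call was lost without WT refed 3 (adjusted p = 0.0506).

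Plg measured 824, 758 and 749 FPKM in Cre fasted livers, against 859, 863 and 911 FPKM in GFP fasted livers. After refeeding it measured 702, 717 and 705 FPKM in Cre refed livers, against 729, 885 and 813 FPKM in GFP refed livers. The constitutive values were 764, 785 and 790.2 FPKM in KO fasted livers, against 857, 839.9 and 787 FPKM in WT fasted livers, and 747, 656 and 742 FPKM in KO refed livers, against 796, 804 and 761 FPKM in WT refed livers. Knockout and control were apart in both acute pairs and in the refed constitutive pair, and in the fasted constitutive pair the highest KO library (790.2 FPKM) lay at the lowest WT library (787 FPKM). In KO livers, every refed library lay below every fasted one (log2 change -0.13 ± 0.072). The knockout call of Plg was lost with the 8 shallower acute libraries (adjusted p = 0.0890), without the libraries high in Cyp2b13 (-0.11, 0.134), without those high in Saa1 (-0.13, 0.0964) and without any 1 of 6 libraries (GFP fasted 3, Cre fasted 2, Cre refed 3, WT fasted 2, KO fasted 1 or WT refed 2; 0.0506 to 0.0544). The refeeding call was lost with the shallower libraries (adjusted p = 0.103). Cpb2, the carboxypeptidase that protects fibrin from plasmin, was not called; its shared knockout effect was -0.047 ± 0.054, with adjusted p = 0.740.

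Of the 4 anticoagulants, Pros1 was the only one called in the 14 comparisons, and Proc was tested only in those of the constitutive model. Pros1 encodes protein S, the cofactor of activated protein C, and its shared knockout effect was -0.28 ± 0.072 (limma adjusted p = 0.0368). It measured 10.6, 9.41 and 9.76 FPKM in KO fasted livers, against 13.4, 14.9 and 14.03 FPKM in WT fasted livers. After refeeding the values were 12.9, 11.1 and 11.7 FPKM in KO refed livers, against 16.7, 16.00 and 12.4 FPKM in WT refed livers. In the acute model it measured 15.2, 15.8 and 13.2 FPKM in Cre refed livers, against 20.1, 23.6 and 14.3 FPKM in GFP refed livers, and 14.6, 16.4 and 16.9 FPKM in Cre fasted livers, against 19.7, 14.8 and 14.2 FPKM in GFP fasted livers. Knockout and control libraries were apart in the fasted constitutive pair (-0.47 ± 0.11, adjusted p = 0.226) and overlapped in the other 3, and the fasted acute means differed by -0.011 log2 units. KO refed lay above KO fasted livers with no overlap (0.24 ± 0.11, adjusted p = 0.178). The knockout call was lost with no filter on low values (0.0659), without the libraries high in Saa1 (-0.24, 0.111) and without any 1 of 14 libraries (0.0508 to 0.0747; it was kept without GFP fasted 2 or 3, Cre fasted 3, GFP refed 3, Cre refed 1 or 2, WT fasted 1, KO fasted 1, WT refed 3 or KO refed 1). Without the libraries high in Cyp2b13 it was -0.27 (adjusted p = 0.0200).

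Proc, the zymogen of activated protein C, measured 322, 329 and 326 FPKM in KO refed livers, against 313, 312 and 319 FPKM in WT refed livers. In the fasted constitutive pair it measured 310.3, 314 and 306 FPKM in KO fasted livers, against 299, 303 and 286 FPKM in WT fasted livers. It was higher without overlap in both pairs and in WT refed over WT fasted livers, by 0.050, 0.068 and 0.089 log2 units, and not called in any (adjusted p between 0.494 and 0.963). Serpinc1 (antithrombin, the main inhibitor of thrombin and factor Xa) and Serpind1 (heparin cofactor II) had shared knockout effects of 0.053 ± 0.034 and -0.0083 ± 0.050, with adjusted p of 0.486 and 0.960.

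Of the 7 coagulation proteases and cofactors, F11 was the only one called, lower after refeeding and higher without FoxO1, where the kininogens were lower. Unlike the kininogen calls, the knockout call of F11 did not hold in every alternative run, as given below. F11 encodes factor XI, which factor XII or thrombin activates and which then activates factor IX. It was lower in refed than in fasted livers (shared effect -0.25 ± 0.058, limma adjusted p = 0.00340, held in every alternative run) and higher without FoxO1 (0.21 ± 0.058, adjusted p = 0.0464). F11 measured 50.7, 43.9 and 54.4 FPKM in Cre refed livers, against 34.2, 35.04 and 31.7 FPKM in GFP refed livers. The fasted acute values were 59.3, 54.98 and 50.6 FPKM in Cre fasted livers, against 44.4, 46.02 and 56.1 FPKM in GFP fasted livers. Its constitutive values were 45.7, 39.5 and 50.9 FPKM in KO refed livers, against 43.5, 44.3 and 45.4 FPKM in WT refed livers, and 53.3, 51.1 and 52.3 FPKM in KO fasted livers, against 55.7, 39.7 and 49.99 FPKM in WT fasted livers. The 3 GFP refed libraries were the lowest of all 24, below every Cre refed library (0.54 ± 0.11, adjusted p = 0.113) and every GFP fasted one (-0.52 ± 0.11, adjusted p = 0.0203). Knockout and control overlapped in the other 3 pairs, and the acute interaction of knockout and refeeding was 0.37 ± 0.15 (adjusted p = 0.747). In KO livers, refed libraries lay below fasted ones without overlap (-0.21, 0.293).

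The knockout call of F11 depended on single libraries: it was lost without any 1 of 19 (adjusted p = 0.0554 to 0.0896; it was kept without GFP fasted 3, Cre fasted 3, Cre refed 2, WT fasted 1 or KO refed 2), with no filter (0.0737), with median-of-ratios scaling (0.0546) and with the shallower libraries (0.108). It was also lost without the libraries high in Cyp2b13 (0.19, 0.170) or Saa1 (0.22, 0.110). The call in GFP livers was lost without GFP fasted 3 (0.0607), GFP refed 1 (0.0517) or GFP refed 3 (0.0517), with the shallower libraries (0.137), and without the libraries high in Cyp2b13 (0.157) or Saa1 (0.0531).

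F11 (chromosome 8, 45241170 to 45262031, mm10) and Klkb1 (45269451 to 45294835) are neighbours that encode related proteins, and they are the only members of the 29 with a RefSeq promoter that hold GTAAACA, on either strand, in the 250 bases before the start. Of 32851 promoters, counted per promoter and not per gene, 3.17% do. Both are printed (GRCm38.p6, minus strand; F11 chr8:45262032-45262281, Klkb1 chr8:45294836-45295085), with GTAAACA and matches to TTGCNNAA in capitals.
F11: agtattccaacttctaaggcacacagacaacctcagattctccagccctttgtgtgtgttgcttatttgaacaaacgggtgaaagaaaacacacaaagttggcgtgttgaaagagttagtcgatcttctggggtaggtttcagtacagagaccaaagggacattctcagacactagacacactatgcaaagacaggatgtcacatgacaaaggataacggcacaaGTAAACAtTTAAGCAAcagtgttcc
Klkb1: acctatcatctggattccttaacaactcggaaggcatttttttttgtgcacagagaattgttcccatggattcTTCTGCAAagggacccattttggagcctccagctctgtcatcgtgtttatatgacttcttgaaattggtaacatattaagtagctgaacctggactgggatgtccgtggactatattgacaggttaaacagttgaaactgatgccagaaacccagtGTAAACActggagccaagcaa
GTAAACA lies 25 to 19 bases before the start of F11 and 21 to 15 before that of Klkb1, on the strand of the gene in both. No printed matches overlap each other, and a match describes letters only, not binding. Among the other motifs searched on both strands, CAAAACAA (the insulin response sequence) was in F13b and Cpb2 (2.21% of all promoters), the HNF1 element in F13b and Hc (0.371%) and CAAAGTCCA (HNF4) in 0 of 29 (0.384%). No promoter was matched for C4b, Cfi, Kng1, Masp1, Plg, Cfb and Proc.

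F10 (factor X, which turns prothrombin into thrombin) measured 143, 138 and 152 FPKM in Cre fasted livers, against 171, 155 and 152 FPKM in GFP fasted livers, lower without overlap at a log2 change of -0.14 ± 0.090 (adjusted p = 0.571). It was higher without overlap in refed than in fasted livers of the constitutive model, 156, 159 and 147 FPKM in KO refed livers, against 138, 147 and 132 FPKM in KO fasted livers and 158, 157 and 154 FPKM in WT refed livers, against 149.5, 145 and 144 FPKM in WT fasted livers (log2 changes 0.15 and 0.10; adjusted p = 0.173 and 0.505). F2, prothrombin, measured 788, 764 and 769 FPKM in KO fasted livers, against 745, 759.6 and 712 FPKM in WT fasted livers, higher without overlap by 0.067 ± 0.071 (0.988). Shared knockout effects of the other proteases and cofactors lay below 0 for F5 (-0.11), F7 (-0.14), F9 (-0.062) and F10 (-0.074) and above 0 for F2 (0.026) and F12 (0.031), with adjusted p between 0.184 and 0.797.

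No fibrin gene was called. Fga measured 1262, 1014 and 1031 FPKM in KO refed livers, against 1472, 1336 and 1445 FPKM in KO fasted livers, with every refed KO library below every fasted one (-0.37 ± 0.11, limma adjusted p = 0.0624). Without KO refed 1 this difference was called (-0.47, adjusted p = 0.0423). Fgg changed by -0.23 and F13b, the carrier subunit of the fibrin-crosslinking factor XIII, by -0.26 in the same livers (0.209 and 0.208). The shared refeeding effects of Fga and Fgg were -0.085 ± 0.074 and -0.057 ± 0.079 (adjusted p = 0.406 and 0.622). Without the 3 libraries high in Saa1, which are all refed, they were -0.19 and -0.17 and both were called (0.0144 and 0.0339). No KO library was among those high in Saa1. Fibrinogen is an acute phase protein, and the part of the acute phase response in these values was not tested.

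In the complement core, Cfb was higher after refeeding. Cfb encodes factor B, the protease of the alternative pathway C3 convertase, and its shared refeeding effect was 0.17 ± 0.038 (limma adjusted p = 0.00213), which held in every alternative run. Cfb measured 364, 392 and 398 FPKM in GFP refed livers, against 335, 304 and 302 FPKM in GFP fasted livers. With Cre the values were 386, 405 and 352 FPKM in Cre refed livers, against 346, 336 and 357 FPKM in Cre fasted livers. The constitutive values were 380.0, 321 and 348 FPKM in WT refed livers, against 313, 318 and 319 FPKM in WT fasted livers, and 357, 304 and 353 FPKM in KO refed livers, against 313, 313 and 306 FPKM in KO fasted livers. Refed and fasted libraries were apart in GFP and WT livers and overlapped in Cre and KO livers. The GFP difference was called (0.30 ± 0.079, adjusted p = 0.0491), and the call was lost without any 1 of the 12 acute libraries (0.0549 to 0.137). The call was kept with a pseudocount of 0.1 and lost with no filter, median-of-ratios scaling, the replicate block or the shallower libraries (adjusted p = 0.0605 to 0.271). It was also lost without the libraries high in Cyp2b13 (0.27, 0.296) or Saa1 (0.28, 0.130). The shared knockout effect of Cfb was 0.013 ± 0.038 (0.913).

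Cfi, factor I, which cleaves and inactivates C3b and C4b, measured 278, 290.3 and 270.0 FPKM in Cre refed livers, against 293, 437 and 293 FPKM in GFP refed livers. In the constitutive model the values were 266, 221 and 255 FPKM in KO refed livers, against 296, 274 and 267 FPKM in WT refed livers. It was lower without overlap in both refed pairs (-0.26 and -0.17), and not called (adjusted p = 0.628 and 0.460). C3, C4b (C4, the substrate of the classical and lectin pathways) and Hc (C5, the start of the terminal pathway) had shared knockout effects of -0.054, -0.047 and -0.0074 and shared refeeding effects of -0.0047, 0.0049 and 0.076, with adjusted p of at least 0.482. C4b is uncertain, since 34.6% of its 50-base windows occur in C4a.

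None of the 4 lectin pathway members was called. The mannose-binding lectins Mbl1 and Mbl2 recognise sugars on microbes and start complement through the proteases Masp1 and Masp2. Mbl1 measured 211, 193 and 182 FPKM in Cre fasted livers, against 145, 176 and 163 FPKM in GFP fasted livers (0.27 ± 0.11, adjusted p = 0.348), and 187, 225 and 179 FPKM in GFP refed livers, against 145, 176 and 163 FPKM in GFP fasted livers (0.28 ± 0.11, 0.153). Both differences were upward without overlap. Mbl2 measured 454, 429.5 and 392 FPKM in KO refed livers, against 309.7, 354 and 324 FPKM in KO fasted livers and was higher without overlap (0.37 ± 0.12, limma adjusted p = 0.0793; 0.0461 with median-of-ratios scaling). In Cre livers it was lower without overlap, at 391, 479.6 and 466 FPKM in Cre refed livers, against 486, 504 and 509 FPKM in Cre fasted livers (-0.17 ± 0.13, 0.453). The refeeding effects on Mbl2 in the acute and constitutive models differed by -0.31 ± 0.13 (adjusted p = 0.160). The shared refeeding effects of Mbl2 and Mbl1 were 0.15 ± 0.063 and 0.12 ± 0.060 (adjusted p = 0.0771 and 0.134); Mbl2 was called without GFP fasted 1 or Cre refed 1, and Mbl1 without WT fasted 1.

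In the membrane attack complex, C8a was higher without FoxO1 in the mean over both models, a call that was lost without the 3 libraries high in Cyp2b13. C6 joins C5b first, C8a and C8b are chains of C8, which enters the membrane, and C9 forms the ring. The shared knockout effect of C8a was 0.33 ± 0.074 (limma adjusted p = 0.0191), and 0.24 without those libraries (adjusted p = 0.0867). C8a measured 233, 201 and 202 FPKM in Cre refed livers, against 163, 153 and 107 FPKM in GFP refed livers, and 201, 201 and 169 FPKM in Cre fasted livers, against 104, 122 and 138 FPKM in GFP fasted livers. In the constitutive model it measured 171, 147 and 187 FPKM in KO refed livers, against 186, 174 and 159.7 FPKM in WT refed livers, and 165, 174 and 173 FPKM in KO fasted livers, against 182, 130.0 and 171 FPKM in WT fasted livers. Cre libraries lay above every GFP library in both acute pairs (0.61 ± 0.16 and 0.65 ± 0.16, adjusted p = 0.222 and 0.119), and KO and WT libraries overlapped (-0.047 and 0.10). The knockout effect, acute minus constitutive, was 0.61 ± 0.15 and not called (adjusted p = 0.170).

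C6 measured 87.2, 45.98 and 64.3 FPKM in Cre refed livers, against 53.02, 7.10 and 11.5 FPKM in GFP refed livers. After fasting the values were 48.00, 48.2 and 35.1 FPKM in Cre fasted livers, against 8.79, 25.8 and 34.6 FPKM in GFP fasted livers. In the constitutive model C6 measured 40.4, 32.9 and 65.9 FPKM in KO refed livers, against 43.4, 65.7 and 46.5 FPKM in WT refed livers, and 46.1, 51.1 and 54.7 FPKM in KO fasted livers, against 84.9, 36.8 and 71.2 FPKM in WT fasted livers. Its log2 changes were 1.88 ± 0.63 and 1.07 ± 0.63 in the acute model and -0.19 ± 0.30 and -0.26 ± 0.30 in the constitutive model, refed first, and none was called (adjusted p between 0.349 and 0.994). The 3 lowest libraries, at 7.10 to 11.5 FPKM, were those high in Cyp2b13, while the other 21 ranged from 25.8 to 87.2 FPKM (median 48.0). The shared knockout effect of C6 was 0.62 ± 0.26 (limma adjusted p = 0.244), and without GFP refed 1 it was 0.83 and called (0.0271). Every GFP refed library left in that fit was high in Cyp2b13.

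C8b, on chromosome 4 beside C8a, measured 234, 141 and 168 FPKM in Cre refed livers, against 152, 131 and 88.7 FPKM in GFP refed livers, and 165, 146 and 123 FPKM in Cre fasted livers, against 95.3, 107 and 112 FPKM in GFP fasted livers. Its constitutive values were 130.2, 131 and 159 FPKM in KO refed livers, against 154, 136 and 172 FPKM in WT refed livers, and 122, 134 and 117 FPKM in KO fasted livers, against 148, 102 and 140.2 FPKM in WT fasted livers. Only the fasted acute pair had no overlap (0.46 ± 0.21, adjusted p = 0.422). The shared refeeding effect of C8b was 0.23 ± 0.10 (limma adjusted p = 0.0710), and it was called with the shallower libraries (0.28, 0.0179), without the libraries high in Cyp2b13 (0.30, 0.0335) and without GFP refed 3 or Cre refed 2. Without the 3 libraries high in Cyp2b13, the acute refed differences of C6, C8a and C8b were 0.26, 0.38 and 0.22 (adjusted p = 0.905, 0.598 and 0.894), with the single GFP refed library left assumed to vary like the other groups. The acute fasted differences were then 0.52, 0.54 and 0.39. The shared knockout effect of C6 was then 0.082, against 0.62 with all libraries. What part these 3 libraries' difference in sex-biased transcripts has in the C6, C8a and C8b values was not tested beyond leaving them out.

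**Figure D5:**
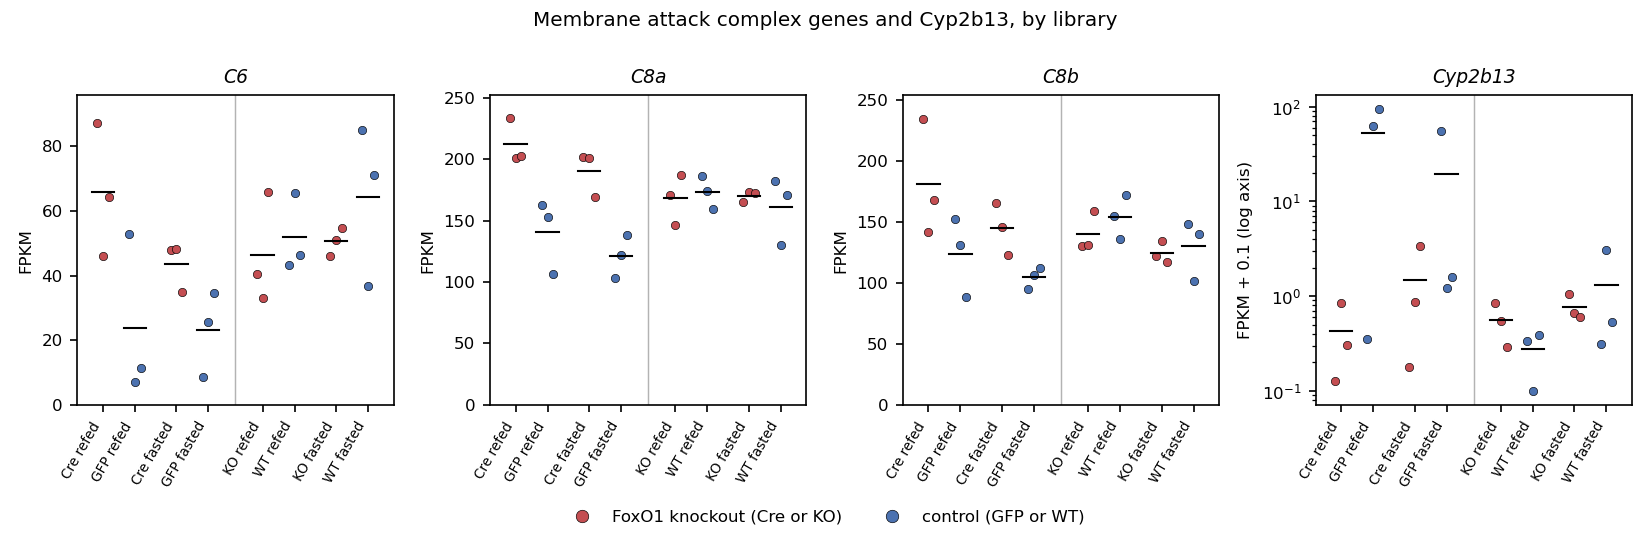
FPKM of C6, C8a and C8b (axes from 0) and FPKM + 0.1 of Cyp2b13 (log axis), by library; red points are Cre or KO libraries, blue points GFP or WT libraries, and bars are group means. The 3 GFP libraries with 55.6 to 93.3 FPKM of Cyp2b13 are the 3 lowest for C6, at 7.10 to 11.5 FPKM.

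C8g, the lipocalin-like chain of C8, measured 298, 301 and 297 FPKM in KO fasted livers, against 287, 288 and 263 FPKM in WT fasted livers, higher without overlap by 0.10 ± 0.079 (adjusted p = 0.960). In GFP livers it was lower after refeeding, at 246, 269.5 and 277 FPKM in GFP refed livers, against 278, 294 and 291 FPKM in GFP fasted livers (-0.12, 0.449). Vtn measured 1410.3, 1278 and 1278 FPKM in KO refed livers, against 1191, 1267 and 1180.0 FPKM in KO fasted livers, higher without overlap by 0.12 ± 0.091 (adjusted p = 0.419). C9 was not called; its shared knockout effect was 0.024 ± 0.15 (adjusted p = 0.960). The 15 members not given by library (F5, F7, F9, F12, F13b, Fgg, Serpinc1, Serpind1, C3, C4b, Hc, C9, Masp1, Masp2 and Cpb2) had log2 changes between -0.42 and 0.48 over the 14 comparisons, with limma adjusted p between 0.184 and 0.999.

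No interaction or difference between models was called among the members. The interaction of knockout and refeeding called 0 of 35 members in the acute model (0.0287% of genes; 6.62% at an unadjusted limma p under 0.05) and 0 of 36 in the constitutive model (0%; 4.4%), with 2 and 0 members at an unadjusted p under 0.05. The knockout effect differed between acute and constitutive models for 0 of 35 members (0% of genes; 10.2% unadjusted), with 4 members unadjusted. The difference (acute minus constitutive) was 1.70 ± 0.53 for C6, 0.61 ± 0.15 for C8a and 0.59 ± 0.19 for C8b (adjusted p = 0.278, 0.170 and 0.288), so the higher C8a of Cre livers was not shown to differ from the constitutive model. Without GFP refed 1, the difference for C6 was 2.11 and called (limma adjusted p = 0.0300). Every GFP refed library left in that fit was high in Cyp2b13 and among the lowest in C6, at 7.10 and 11.5 FPKM. The refeeding effect differed between models for 0 of 35 members (1.43% of genes; 21.5% unadjusted), with 4 unadjusted.

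Of 59 other complement, coagulation and fibrinolysis genes on a fixed list, 41 were tested in the joint fit. For the shared knockout effect 1 was higher and 1 lower: Cpn1, the catalytic subunit of carboxypeptidase N, which inactivates kinins and anaphylatoxins, at 0.19 ± 0.033 (limma adjusted p = 0.00220, called in every alternative), and Cd59a, a membrane protein that blocks the attack complex, at -0.17 ± 0.042 (0.0288). The Cd59a call was lost without the libraries high in Cyp2b13 (0.129) or Saa1 (0.0656), with the shallower libraries (0.0774) and without any 1 of 7 libraries. For the shared refeeding effect 9 of the 41 were higher and 1 lower, 21.95% and 2.44% of them, against 19.9% and 10.4% of all genes, so the share higher was near that of all genes. The 3 highest changes among those called were of C1qb (0.63 ± 0.19, 0.0168) and C1qa (0.58 ± 0.21, 0.0380), chains of C1q made by macrophages, and the collectin Colec11 (0.42 ± 0.091, 0.00188), and the lower gene was F3, tissue factor (-0.33 ± 0.091, 0.00943). Without the libraries high in Cyp2b13 the calls of C1qb (0.52, 0.104), C1qa (0.46, 0.168) and F3 (-0.30, 0.0517) were lost, and without those high in Saa1 the calls of C1qb (0.48, 0.0504) and C1qa (0.43, 0.115), while that of Colec11 held. The C1qa call was also lost with median-of-ratios scaling (0.0521) and without any 1 of 14 libraries. Between Cre refed and Cre fasted livers, Cd55 (decay-accelerating factor, 1.03) and Lman1 (which carries factors V and VIII out of the endoplasmic reticulum, 0.47) were higher and Fetub (-0.57) lower, where 5.44% of genes were called; the Fetub call was lost without the libraries high in Saa1 (-0.59, 0.0684), and all 3 with the shallower libraries (0.105 to 0.177). The refeeding effect on Cd55 differed between models by 0.76 ± 0.14 (adjusted p = 0.0204), and by 0.71 without the libraries high in Saa1, where the call was lost (0.0537). In the remaining comparisons 0 of the 40 or 41 tested were called.

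Of the markers of other cell types, 16 of 27 endothelial, Kupffer cell and stellate markers were higher in the shared refeeding effect, where 19.9% of all genes were. All 9 endothelial, all 10 tested Kupffer cell and all 8 stellate markers lay above 0, against 60.3% of all genes, and 6, 5 and 5 of them were called. With median-of-ratios scaling, under which 51.01% of all genes lay above 0 and 14.8% were called higher, all 27 stayed above 0 and 4, 3 and 5 were called. Of the Kupffer cell markers, 0 were called without the libraries high in Cyp2b13 and 1 without those high in Saa1, while the endothelial and stellate counts were 6 and 5 in both. Their summed levels ranged from 40.7 to 82.2 FPKM in refed against 21.9 to 68.8 FPKM in fasted libraries for endothelial, 46.3 to 279 against 55.2 to 214 FPKM for Kupffer cell, and 65.6 to 97.3 against 40.5 to 88.6 FPKM for stellate markers, with no marker at 0 in all libraries of a class. C1qa and C1qb are also on the Kupffer cell list and F8 on the endothelial list. The part of these cells in the refeeding values was not tested. Of the cholangiocyte, neutrophil, lymphocyte, platelet and erythroid markers, 0 were called for either shared effect.

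With the knockout, 0 markers of cell types other than hepatocytes were called. The 2 hepatocyte markers lower without FoxO1 were Cyp2e1, which also passed without either set of 3 libraries, and Apoa1, which was lost without those high in Cyp2b13 (-0.19, 0.102) or Saa1 (-0.21, 0.0521). Of 11 male-biased genes, 2 were higher (Cyp4a12b, 1.45, adjusted p = 0.0360, and Cyp4a12a, 1.37, 0.0427) and all 11 lay above 0, against 51.1% of all genes. The 3 libraries high in Cyp2b13, all of them controls, hold the lowest sums of these genes. Without them 7 of 11 lay above 0, the median was 0.12 against 0.52 with all libraries, and 0 were called (Cyp4a12b, 0.69, 0.169; Cyp4a12a, 0.71, 0.226). Without the libraries high in Saa1, all 11 lay above 0 and 0 were called (0.137 and 0.154). The part of these genes in the knockout values of the members was not tested beyond leaving out the 3 libraries. Of 17 liver regulators, Foxa3 was higher (0.38 ± 0.079, adjusted p = 0.0102) and Stat5b lower (-0.19 ± 0.051, 0.0493) without FoxO1, and both calls were lost without the libraries high in Cyp2b13 (0.34, 0.0814, and -0.16, 0.173). The Stat5b call was also lost without those high in Saa1 (0.0940) and without any 1 of 19 libraries. Il6ra, the receptor for interleukin 6, which drives acute phase genes, was lower (-0.46 ± 0.10, 0.0174), with the call lost without the libraries high in Cyp2b13 (-0.45, 0.0753) or Saa1 (-0.41, 0.0816). The shared refeeding effect called 30.3% of all genes tested. Among the regulators in it, Foxa3 (0.66), Foxa2 (0.36) and Hnf4a (0.27) were higher and Stat5b (-0.34), Nr1i3 (-0.29) and Nr2f2 (-0.27) lower.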

How the data were processed

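The authors deposited FPKM per locus with 95% bounds and a status. HISAT2, Cufflinks, Cuffdiff and mm10 appear in the submitters' processing notes, without versions. Libraries were made with the TruSeq Stranded mRNA kit, per the labels' protocols, and the sources used here do not give whether counting used strand. FPKM are relative to the mapped fragments, so a large change in abundant genes shifts all others. Of 23746 loci (23284 symbols), 14 marked as failed in some fitted library were left out of that fit, Proc among them in the acute and joint fits. The 708 loci of repeated symbols were kept as they stand. Low values implied whole fragments, within 0.05, for 65.6% to 68.5% of steps (10% by chance), too few to recover counts, so only relative depth was taken. Bounds are the authors'; no counting interval can be given.

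Groups and replicate numbers came from sample titles. Genes with FPKM of at least 1 in at least 3 fitted libraries were kept (10454 acute, 10378 constitutive, 10682 joint) and log2(FPKM + 1) was fitted with limma 3.58.1 in R 4.3.3 (data.table, version 1.17.8), 1 coefficient per group, eBayes with trend, two-sided p with Benjamini-Hochberg adjustment over all genes kept, called at 0.05. The log2(FPKM + 1) scale understates changes of low genes. The fit was tested on simulated data. Across all groups of a model, replicate numbers did not pair the libraries. Alternatives were no filter, a pseudocount of 0.1, a replicate block, median-of-ratios scaling, the 8 shallower acute libraries with the constitutive ones, and each library left out; leaving out the libraries high in Cyp2b13 (over 50 FPKM) or Saa1 (over 300 FPKM) was chosen after seeing the data. Members called anywhere, and up to 4 per direction and pair with the largest change among groups that do not overlap, were given by library; of other lists, up to 3 called per direction. The members and lists were chosen with earlier results of these data known. Cpb2, F5, Masp2 and Serpind1 overlap other loci, and their values are uncertain. Promoters are RefSeq's, matched by symbol for 29 of 36 members. Python 3.11.15, pandas 2.3.3, numpy 2.4.6 and matplotlib 3.10.9 were used.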

Additional observations from a re-analysis of the deposited data

How the results depend on the processing

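Counts of called members moved by over 1.5 times in some alternatives. The shared knockout count was 8 as reported, 5 with the 8 shallower acute libraries, 4 without the libraries high in Cyp2b13 (Kng1, Kng2, Hrg and Pros1), 5 without those high in Saa1 (Kng1, Kng2, Hrg, C8a and Serpinf2), and 5 to 8 when 1 library was left out (5 without Cre fasted 2, Cre refed 3, WT fasted 2 or WT refed 2). For refed against fasted GFP livers the count was 2 as reported, 1 with no filter, 1 with median-of-ratios scaling, 1 with the replicate block, 0 with the shallower libraries, 0 without the libraries high in Cyp2b13, 0 without those high in Saa1, and 0 to 1 with 1 library left out (0 without GFP fasted 3, GFP refed 1 or GFP refed 3). Counts of 0 became 1 with median-of-ratios scaling for refed against fasted Cre livers (Kng2) and KO livers (Mbl2). With 1 library left out they ranged from 0 to 4 for Cre against GFP refed, 0 to 2 for refed against fasted Cre, 0 to 1 for refed against fasted KO and 0 to 1 for the knockout effect, acute minus constitutive. The highest of each range came without GFP refed 1, except that of the KO livers, which came without KO refed 1. The cause was not tested. The shared refeeding count ranged from 4 to 6 with 1 library left out and was 5 to 7 otherwise, and the other 7 counts were 0 throughout. No value of a member given by library changed sign while called.

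Across all groups of a model, same-numbered libraries did not deviate together (correlations of -0.34 to 0.37 in the acute and -0.14 to 0.25 in the constitutive model, 18 each). Within a virus, the number did go with depth. The deeper library was number 3 in GFP fasted and refed (1.30 and 1.37) and number 1 in Cre fasted and refed (1.16 and 1.31). Fasted and refed libraries numbered 1, 2 and 3 correlated at 0.017, 0.0025 and 0.26 for GFP and 0.37, 0.23 and -0.18 for Cre. The replicate block joins GFP and Cre libraries by number, so it does not take up this depth. With the replicate block the shared knockout count was 7 (Plg lost, adjusted p = 0.0518), the shared refeeding count 5 and the other 11 counts 0. Depth is uneven in the acute model only, and the fit without the libraries high in Cyp2b13 leaves 1 GFP refed library.

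Counts over all genes moved too. Across the alternatives other than leaving out single libraries they ran from 182 to 370 for the shared knockout effect (335 as reported), 39 to 686 for refed against fasted GFP (686), 6 to 576 for refed against fasted Cre (569), 275 to 824 for refed against fasted KO (584), 21 to 81 for refed against fasted WT (33), 5 to 65 for Cre against GFP fasted (31), 1 to 15 for Cre against GFP refed (11), 4 to 15 for KO against WT fasted (10), 2 to 5 for KO against WT refed (3) and 43 to 194 for the refeeding effect, acute minus constitutive (153). For the interactions and the knockout effect, acute minus constitutive, they stayed between 0 and 6.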

Other observations

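The 3 libraries high in Saa1, a gene of the acute phase response, also held the highest Saa2 (80.0 to 209 FPKM, against 12.8 to 38.6 FPKM in the other 21) and Lcn2 (19.6 to 177 FPKM, against 3.81 to 16.3 FPKM). They are GFP refed 2, Cre refed 1 and WT refed 2, so they fall in 3 groups of both models. Fetub, which lies beside Hrg, measured 271, 250.4 and 267 FPKM in Cre refed livers, against 341, 539 and 481 FPKM in GFP refed livers. Fasted acute livers held 359, 379 and 435 FPKM in Cre fasted livers, against 358, 349.5 and 364 FPKM in GFP fasted livers. Its log2 change between Cre and GFP refed livers was -0.76 (limma adjusted p = 0.0930) and between KO and WT refed livers 0.011 (0.971); the gene was chosen after its values were seen.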
